A study of Mus musculus with 12 samples.

Results

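The genes described here are the kinases and activating adaptors that act directly beneath the T cell receptor in thymocytes. They were chosen as all probe sets of the Affymetrix mouse array that the platform annotation assigns to any of 9 genes: Lck, Fyn, Zap70, Txk, Lat, Lcp2, Vav1, Prkcq and Plcg1. The rule found 14 probe sets, which cover 8 of the 9 genes, among 12422 probe sets that are not controls and 8251 genes with a probe set of their own. Lck, the Src family kinase carried by the CD4 and CD8 coreceptors, is not analysed here because no probe set used here bears its symbol. Zap70 and Vav1 had 3 probe sets each, Txk and Prkcq had 2, and Fyn, Lat, Lcp2 and Plcg1 had 1.

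RNA came from mouse thymocytes taken at day 6 from RTOC (reaggregate thymic organ culture), in which thymocytes are mixed with thymic stroma and cultured. One group, called OT1, had 4 arrays of thymocytes carrying the OT1 transgenic receptor, which recognises ovalbumin on MHC class I, and no peptide is named for it. The other 2 groups, also of 4 arrays, carried the HY transgenic receptor, which recognises a male antigen on MHC class I, and were given Smcy peptide: 1e-07 M for HY_low and 1e-05 M for HY_high. The titles number the arrays 1 to 4 within each group and also carry the unexplained letters ab for HY_low and aa for HY_high, so dose and whatever the letters mark cannot be told apart. Strain, age, sorting and the source of the stroma are not given in the sources used here. Nothing in the labels says that the 4 arrays of a group came from separate cultures, so p-values measure only the spread between these arrays.

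Signalling from the T cell receptor starts when Src family kinases phosphorylate the cytoplasmic tails of the CD3 and zeta chains. ZAP-70 docks on the phosphorylated tails and phosphorylates the adaptors LAT and SLP-76 (encoded by Lcp2), which gather Vav1, Tec family kinases and phospholipase C gamma 1. That phospholipase releases calcium and makes diacylglycerol, which activates protein kinase C theta (Prkcq) and Ras. In the thymus the strength of this signal separates death by neglect, positive selection, agonist selection and deletion.

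The values were intensities on a linear scale with a lowest value of 1, and the array medians lay between 3.33 and 3.97. Arrays with the same title number resembled each other across groups, although the labels do not explain the number. For the Gapdh control, the 3' probe set over the 5' one, as log2, ran from 5.60 to 6.26 on the arrays numbered 2 and from 2.95 to 3.27 on those numbered 4, against 4.57 to 5.48 on the others. The Actb control did not separate the numbers, with 2.59 to 3.6, 2.02 to 2.99, 2.74 to 3.39 and 2.15 to 2.54 on the arrays numbered 1 to 4. For both controls the 3' probe set was thus several-fold brighter than the 5' one on 12 of 12 arrays. What this does to the members' probe sets was not tested. The share of values at 1 was 8.5% to 8.8% on the arrays numbered 1, 3.0% to 19.04% on those numbered 2 and 20.8% to 22.5% on the others. Of the thymocyte-defining genes, 8 of 10 had a probe set, and Cd3e, Cd3d, Cd3g, Thy1, Cd2 and Cd5 exceeded an intensity of 8 on 12 of 12 arrays. Cd247 did so on 9 and Cd28 on 11. The summed level of this list was 766 to 1662 in OT1, 830 to 2049 in HY_low and 555 to 1194 in HY_high. For markers of natural killer (NK) cells the sums were 75.1 to 226, 24.9 to 132 and 151 to 356 (8 of 10 genes). Klrd1, at 8.75 to 317.21, was the only one of them above 8 on 12 of 12 arrays; Tyrobp was above 8 on 6, Fcer1g and Eomes on 2 each, and Ncr1, Klrk1, Gzma and Prf1 on 0, with Ncr1 at 1 on 5. B cell markers summed to 95.7 to 1013, 84.2 to 638 and 162 to 536 (8 of 9 genes), macrophage and dendritic cell markers to 119 to 327, 139 to 615 and 138 to 576 (14 of 14), thymic stroma markers to 57.6 to 98.5, 62.9 to 91.3 and 61.9 to 86.5 (13 of 14), and mast cell and platelet markers to 5.81 to 22.4, 10.6 to 34.0 and 15.2 to 67.9 (5 of 6). In the B cell list Ighm (59.37 to 987.18) was the only gene above 8 on 12 of 12 arrays. In the macrophage and dendritic cell list it was Ctss (81.18 to 583.14). Of the other B cell markers, Cd79b (3.86 to 42.89) was above 8 on 10 arrays. Blk (1.2 to 152.58) and Pax5 (2.41 to 11.25) were above 8 on 3 each and Ms4a1 (2.04 to 9.77) on 2. Cd79a, Btk and Cd22 were at most 6.06, 4.09 and 3.69. With the block limma called Thy1 lower in HY_high than in HY_low (adjusted p = 0.0126) and than in OT1 (adjusted p = 0.00564), Cd2 lower than in OT1 (adjusted p = 0.0402), and Fcer1g, from the NK list, higher in HY_high than in both (adjusted p = 0.00718 and 0.00159). Tyrobp, Ctss and Kit were also called higher in HY_high than in OT1 (adjusted p = 0.012, 0.0275 and 0.00731). Without the block limma called only Fcer1g of these, in HY_high against OT1 (adjusted p = 0.0229, and 0.0825 against HY_low), and the adjusted p against OT1 was 0.788 for Thy1, 0.406 for Tyrobp, 0.204 for Kit and 1 for Cd2 and Ctss. The CD3 chains had log2 differences of 0.21 (Cd3e), 0.17 (Cd3d) and 0.33 (Cd3g) for HY_high minus OT1 and did not pass. For HY_high minus HY_low they had -0.25, -0.04 and -0.24 and did not pass either. Cd247, the zeta chain, had -0.44 from OT1 and -0.34 from HY_low. Of the 8 thymocyte-defining genes, 0 were higher and 8 lower in HY_high than in HY_low, with a median of -0.32. Against OT1, 3 were higher and 5 lower, with a median of -0.46. In such bulk RNA, fewer cells of a type and less RNA per cell cannot be told apart. The part of other cells in the members' values was not tested.

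None of the 14 probe sets was called in any of the 3 comparisons. The test was limma on log2 intensity with one mean per group over the 12 arrays, and a call was an adjusted p under 0.05 after Benjamini-Hochberg adjustment over the 8695 probe sets that passed a filter on dim values, all 14 members among them. In HY_high against HY_low 0 of 14 were called, where 0.023% of all tested probe sets were. In HY_low against OT1 the counts were 0 of 14 and 0.023%, and in HY_high against OT1 0 of 14 and 0.173%. With the title number as a block, 0 of 14 were again called in each comparison, against 0.345%, 0.092% and 1.36% of all tested probe sets in the same order. At an unadjusted p under 0.05, limma gave 0 members in each comparison without the block and 1, 0 and 2 with it, while all tested probe sets gave 2.96%, 2.65% and 4.08% without it and 11.1%, 8.37% and 11.7% with it. The groups overlapped for 14 of 14 members in each comparison, and they did not overlap in 2.02%, 1.63% and 2.53% of all tested probe sets.

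**Figure D1:**
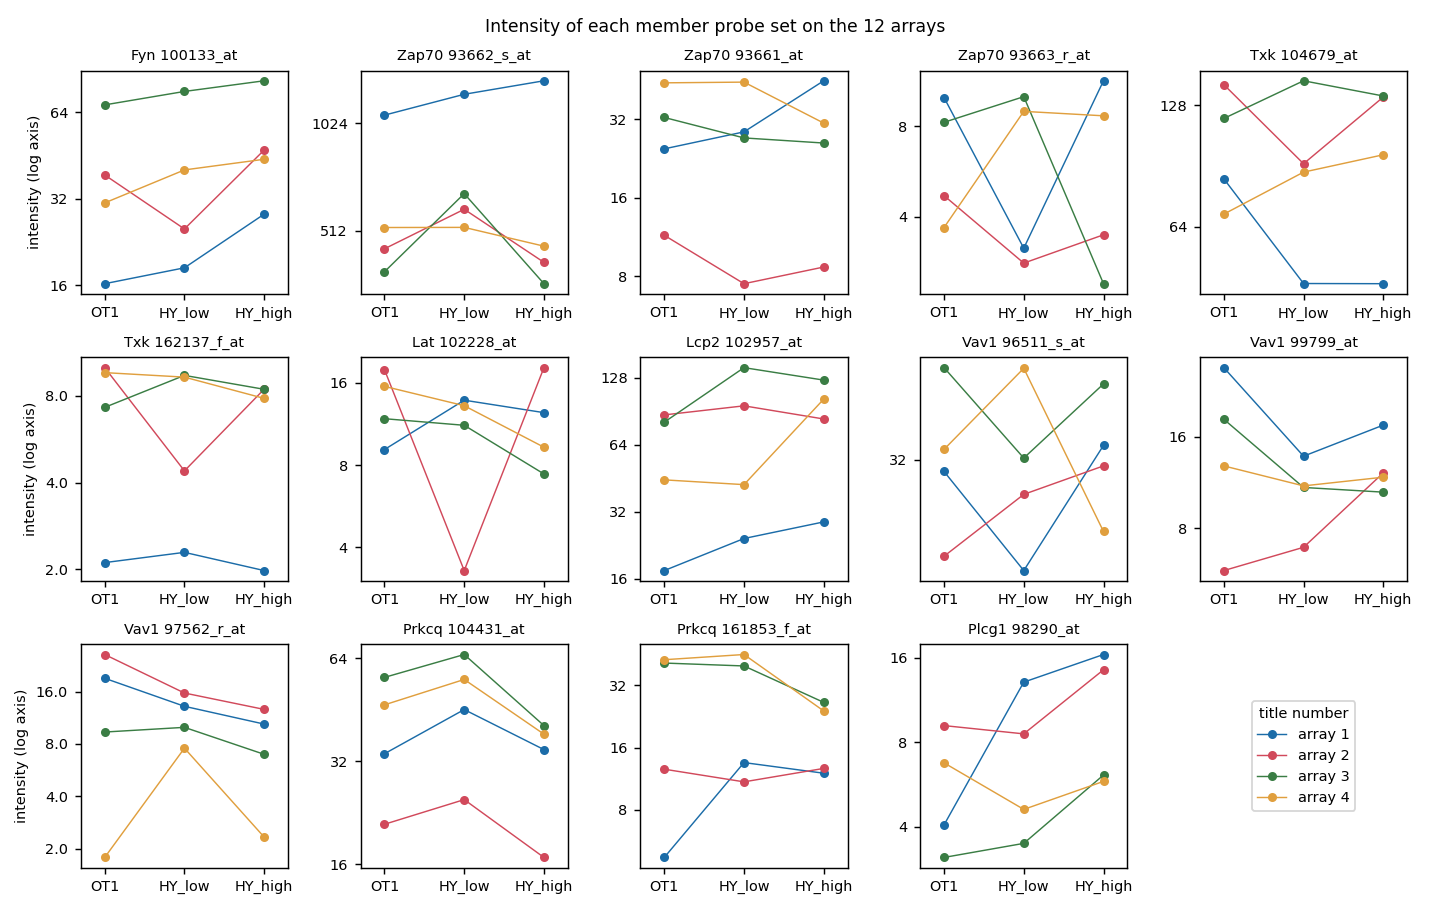
Intensity (log axis) of each of the 14 probe sets in the 3 groups, 1 panel per probe set, with a line joining the arrays of the same title number. The arrays numbered 1 are lowest in all 3 groups for Fyn (16.2 to 28.3) and highest for the brightest Zap70 probe set (1079.8 to 1348).

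Promoters of 3 members are printed as examples: Txk and Vav1, which are largely restricted to blood cells, and Fyn, which is expressed in many tissues. Each is the 250 bases before an annotated start in RefSeq (mouse build GRCm38.p6), written 5′ to 3′ on the gene's strand. For Txk and Fyn the annotated gene reaches further out, to 72752992 and 39369743, so their marked sites lie inside the annotated gene. The bases of Vav1 lie wholly before its gene. Capitals mark AGGAAGT, a form of the site bound by ETS family factors, in Txk and Vav1, and GGGCGG, the GC box, in Fyn. Both strands were searched, so that a match on the other strand reads ACTTCCT or CCGCCC. Vav1 also holds the GC box, as CCGCCC, which is left in lower case here. Txk lies at chr5:72752778-72753027 on the minus strand, Vav1 at chr17:57278850-57279099 on the plus strand and Fyn at chr10:39369549-39369798 on the plus strand.
Txk: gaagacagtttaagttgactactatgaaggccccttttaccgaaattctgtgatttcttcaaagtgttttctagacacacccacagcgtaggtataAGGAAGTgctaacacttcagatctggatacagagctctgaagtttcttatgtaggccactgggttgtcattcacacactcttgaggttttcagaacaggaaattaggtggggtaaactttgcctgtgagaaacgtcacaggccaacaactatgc
Vav1: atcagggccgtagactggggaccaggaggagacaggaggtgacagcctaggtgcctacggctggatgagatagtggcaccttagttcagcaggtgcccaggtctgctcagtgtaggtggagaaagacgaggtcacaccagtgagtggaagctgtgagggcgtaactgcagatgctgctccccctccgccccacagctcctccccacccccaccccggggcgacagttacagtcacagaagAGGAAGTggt
Fyn: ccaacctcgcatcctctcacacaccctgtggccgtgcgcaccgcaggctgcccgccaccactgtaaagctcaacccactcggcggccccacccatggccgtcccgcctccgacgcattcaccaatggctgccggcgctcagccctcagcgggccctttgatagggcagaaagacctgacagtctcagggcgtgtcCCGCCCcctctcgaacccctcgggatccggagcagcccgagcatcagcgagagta

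The annotation gave 13 promoters for the 9 genes, with several starts for Zap70, Lck and Txk. AGGAAGT stood in 4 of the 13, those being promoters of Lck, Txk and Vav1, and in 7.69% of the 32851 promoters of the table. Zap70, Lat, Lcp2, Fyn, Prkcq and Plcg1 had none. Of the other ETS forms, GGAAGT stood in 6 of the 13 (19.7% of all promoters) and GGAAGTG in 3 (8.55%). ACAGGAAG stood in 2 (2.9%) and CCGGAAG in 0 (6.91%). GGGCGG stood in 5 of the 13, one each of Fyn, Lck, Plcg1, Prkcq and Vav1, and in 32.7% of all promoters. The RUNX form TGTGGT stood in 3 of the 13, in Lck, Txk and Zap70, and in 14% of all. In all, 12 short strings were looked at, and not all are given here. The printed promoters set no rule by kind of gene. The arrays hold no measurement of promoter activity, so a match is a description of the letters only.

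Fyn, the Src family kinase that acts beside Lck at the receptor, had its highest group level in HY_high. On OT1 arrays 1 to 4 its intensity was 16.2, 38.7, 67.9 and 30.9, on HY_low arrays 18.4, 25.1, 75.7 and 40.3, and on HY_high arrays 28.3, 47.3, 82.4 and 43.9. The groups overlapped widely, and array 3 was the highest and array 1 the lowest in each. The geometric mean was 33.9 for OT1, 34.4 for HY_low and 46.9 for HY_high. Within the numbers HY_high lay above HY_low 4 of 4 times, by log2 differences of 0.62, 0.91, 0.12 and 0.12, and above OT1 4 of 4 times, by 0.81, 0.29, 0.28 and 0.51. Those comparisons share the HY_high arrays. The log2 difference was 0.45 ± 0.53 (SE, n = 4 per group, limma adjusted p = 1) from HY_low and 0.47 ± 0.53 (adjusted p = 1) from OT1, and the 95% intervals with the block were -0.06 to 0.95 and -0.03 to 0.97. OT1 and HY_low were the nearest neighbours, at a difference of 0.02 with an interval of -0.48 to 0.53 under the block.

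Zap70, the Syk family kinase recruited to the phosphorylated zeta chain, was read by 3 probe sets that did not differ between groups past the threshold. The brightest, 93662_s_at, stood at 1079.8, 456, 393 and 523 on OT1 arrays 1 to 4, at 1235, 588, 651 and 523 on HY_low arrays and at 1348, 417, 364 and 463 on HY_high arrays. Array 1 was above every other array in all groups, with a geometric mean of 1216 for the number against 482, 453 and 502 for numbers 2, 3 and 4. By groups, OT1 had a geometric mean of 564, HY_low of 705 and HY_high of 555. HY_low was above OT1 within 4 of 4 numbers, number 4 by less than 0.01, and above HY_high within 3 of 4. The HY_high minus HY_low difference was -0.35 ± 0.49 (limma adjusted p = 1), with an interval of -0.75 to 0.06 under the block, and HY_high and OT1 differed by -0.02 with an interval of -0.43 to 0.38.

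The other probe sets of Zap70 ranked the numbers differently. On 93661_at array 2 was the lowest in every group, at 11.5, 7.5 and 8.69 against 24.7 to 45.0 elsewhere, and group geometric means were 25.3, 22.6 and 23.7. The third, 93663_r_at, was dim, from 2.40 to 11.3, with no array number at the same rank in every group. The suffixes _s_at and _r_at mark probe sets that can read related transcripts or were built under relaxed rules, so the probe sets of a gene are not equal measures of it. Differences between groups on these probe sets lay between -0.21 and 0.07.

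Txk, a Tec family kinase that phosphorylates phospholipase C gamma 1, had its brighter probe set at 84.2, 144, 119 and 68.8 on OT1 arrays 1 to 4. The HY_low arrays read 46.3, 91.8, 147 and 87.5, and the HY_high arrays 46.2, 134, 135 and 96.6. Each group ran over much the same range, and array 1 was the lowest in HY_low and HY_high. Geometric means of 99.8, 86.0 and 94.9 gave differences of -0.21 ± 0.46 for HY_low minus OT1, 0.14 ± 0.46 for HY_high minus HY_low and -0.07 ± 0.46 for HY_high minus OT1 (limma adjusted p = 1 for each). With the block the 95% intervals were -0.73 to 0.30, -0.37 to 0.65 and -0.58 to 0.44, so a change of 2-fold lay outside all 3. Without the block they were -1.19 to 0.77, -0.84 to 1.12 and -1.05 to 0.91, and each held a change of 2-fold in 1 direction. A second Txk probe set, 162137_f_at, was dim, with array 1 at 1.98 to 2.29 in the 3 groups and all other arrays at 4.39 to 10.0.

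Lat, the membrane adaptor that ZAP-70 phosphorylates, showed the least resemblance between same-numbered arrays. Its intensity was 9.13, 17.9, 11.8 and 15.6 on OT1 arrays 1 to 4, 13.8, 3.29, 11.2 and 13.2 on HY_low arrays, and 12.5, 18.2, 7.43 and 9.31 on HY_high arrays. HY_low array 2 stood well below its group. The HY_low minus OT1 difference was -0.54 ± 0.51 (limma adjusted p = 1), and without HY_low array 2 it was -0.05. For HY_high minus HY_low the difference was 0.31 ± 0.51 (adjusted p = 1) with that array and -0.18 without it, so that 1 array decided its sign. The HY_high and OT1 means, 11.2 and 13.2, differed by -0.23 ± 0.51.

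Lcp2 encodes SLP-76, the cytosolic adaptor that joins LAT through Gads. It read 17.4, 87.0, 80.7 and 44.5 on OT1 arrays 1 to 4, 24.3, 95.5, 142 and 42.3 on HY_low arrays, and 28.8, 83.4, 125 and 102 on HY_high arrays. The group geometric means were 48.3, 61.1 and 74.4, but all ranges overlapped and array 1 was the lowest in each group. HY_high exceeded OT1 by 0.62 ± 0.64 on the log2 scale (limma adjusted p = 1) and within 3 of 4 numbers, by 0.73, -0.06, 0.63 and 1.20. Leaving out OT1 array 1 brought it to 0.13, HY_high array 3 to 0.38 and HY_high array 1 to 1.08. With the block the standard error fell to 0.26 and the unadjusted limma p was 0.0259, but the adjusted p was 0.329 and the interval 0.08 to 1.16. Between HY_low and its neighbours the differences were 0.34 from OT1 and 0.29 to HY_high, with block intervals of -0.20 to 0.88 and -0.25 to 0.82.

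Vav1, an exchange factor for Rac that is activated by tyrosine phosphorylation, was read by 3 probe sets. The brightest, 96511_s_at, was at 30.2, 19.8, 50.5 and 33.7 on OT1 arrays 1 to 4, at 18.5, 26.9, 32.3 and 50.4 on HY_low arrays and at 34.4, 31.0, 46.6 and 22.4 on HY_high arrays. The order of the arrays differed from group to group, and the group geometric means, 31.8, 30 and 32.5, lay within 0.12 of each other on the log2 scale. On 99799_at the means were 13.9, 10.4 and 12.8, and on 97562_r_at 9.54, 11.2 and 6.80. The last was lower in HY_high than in HY_low within 4 of 4 numbers, by -0.34, -0.31, -0.51 and -1.70, while the others were higher within 3 of 4. Its difference of -0.72 ± 0.72 did not pass (limma adjusted p = 1), and 2 of its 12 values were below 3.

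Plcg1 encodes the phospholipase that the LAT complex activates, and it was dim, above 8 on 5 of 12 arrays. It read 4.06, 9.16, 3.11 and 6.75 on OT1 arrays 1 to 4, 13.1, 8.56, 3.49 and 4.61 on HY_low arrays, and 16.4, 14.5, 6.11 and 5.80 on HY_high arrays. Geometric means of 5.29, 6.51 and 9.58 followed, with overlap between all groups. The HY_high minus OT1 difference, 0.86 ± 0.55, was the largest of any member in any comparison and did not pass (limma adjusted p = 1, or 0.417 with the block, interval 0.01 to 1.71). It rested in part on array 1, where it was 2.01, against 0.66, 0.97 and -0.22 on arrays 2, 3 and 4. HY_high was above HY_low within 4 of 4 numbers, by 0.33, 0.76, 0.81 and 0.33 (difference 0.56 ± 0.55, adjusted p = 1).

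Prkcq encodes protein kinase C theta, which links the receptor to NF-kappaB. Its brighter probe set read 33.7, 20.9, 56.3 and 46.8 on OT1 arrays 1 to 4, 45.3, 24.7, 65.6 and 55.5 on HY_low arrays, and 34.6, 16.8, 40.7 and 38.4 on HY_high arrays. The arrays kept the same order in every group, 2 the lowest and 3 the highest, and HY_high was the lowest group by its geometric mean of 30.9 against 44.9 in HY_low and 36.9 in OT1. HY_high lay below HY_low within 4 of 4 numbers, by -0.39, -0.56, -0.69 and -0.53, and HY_low above OT1 within 4 of 4, by 0.43, 0.24, 0.22 and 0.25. The HY_high minus HY_low difference was -0.54 ± 0.46 (limma adjusted p = 1). With the block its standard error was 0.22, its interval -1.0 to -0.08, its unadjusted limma p 0.0230 and its adjusted p 0.370, so it did not pass. The second Prkcq probe set, 161853_f_at, had -0.36 ± 0.67, lower within 3 of 4 numbers.

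Directions within the numbers can be set against those of all tested probe sets. In HY_high against HY_low, 4 of 14 members moved the same way in 4 of 4 numbers (Fyn and Plcg1 higher, 104431_at of Prkcq and 97562_r_at of Vav1 lower), as did 19.6% of all tested probe sets (9.81% higher, 9.76% lower). In HY_low against OT1 it was 2 of 14 (93662_s_at of Zap70 and 104431_at of Prkcq, both higher) and 17.1% (9.73% higher, 7.38% lower), and in HY_high against OT1 1 of 14 (Fyn, higher) and 19.1% (10.4% higher, 8.74% lower). The median log2 difference over the 14 members was 0.10, -0.03 and -0.08 in the 3 comparisons, beside medians of 0.01, 0.01 and 0.02 over all tested probe sets. In size, without sign, the members' medians were 0.30, 0.26 and 0.16, beside 0.33, 0.30 and 0.32. The comparisons share arrays, so these values are not independent of each other.

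How large a change could have been missed was read from the 95% intervals, which cover the spread between arrays. Without the block the outermost bounds for any member were 0.212-fold and 3.29-fold in HY_high against HY_low, 0.327-fold and 3.38-fold in HY_low against OT1, and 0.248-fold and 4.05-fold in HY_high against OT1. With the block they were 0.335-fold and 2.65-fold, 0.354-fold and 2.22-fold, and 0.392-fold and 3.27-fold. The block intervals lay wholly within 2-fold in either direction for 7, 8 and 9 of the 14 probe sets, and without the block for 0, 0 and 1. A p that missed the threshold therefore does not show equal levels.

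**Figure D2:**
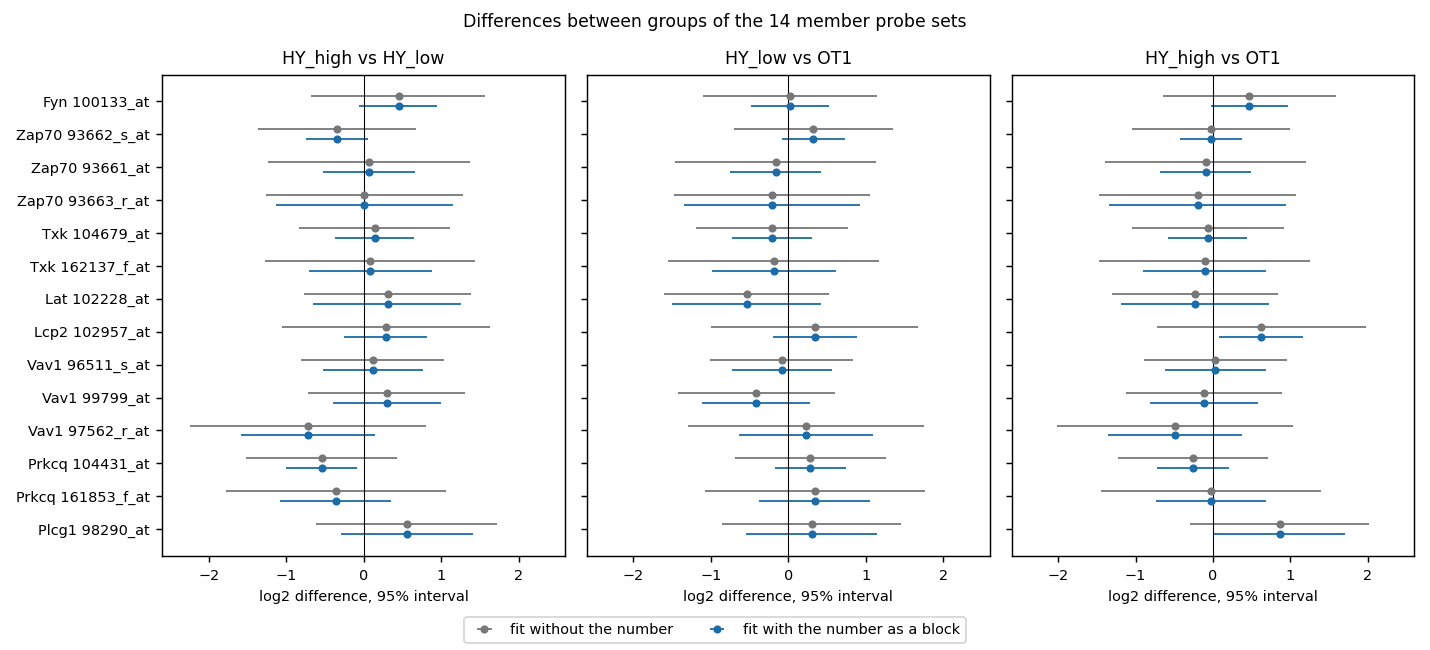
Log2 difference with its 95% interval for each of the 14 probe sets in the 3 comparisons, from the limma fit without the title number (grey) and with it as a block (blue). The points lie between -0.72 and 0.86, and the block intervals are narrower, leaving out 0 for 1 probe set in HY_high against HY_low (104431_at of Prkcq), 0 in HY_low against OT1 and 2 in HY_high against OT1 (Lcp2 and Plcg1).

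The title number accounted for more of the members' variation than the group did. Its median share of the sum of squares of log2 intensity over the 12 arrays was 78.6% for the 14 members, where the group took 6.76%. Over all tested probe sets the medians were 52.8% and 10.7%. The number's share exceeded the group's for 13 of 14 members, Lat being the exception at 4.14% against 11.8%, and for 84.0% of all tested probe sets. The direction of the number effect was not common to the members: array 1 was lowest by its geometric mean for Fyn (20.3), Lcp2 (23.0) and both Txk probe sets (56.5 and 2.12), and highest for 93662_s_at (1216) and 93663_r_at of Zap70 (7.09) and 99799_at of Vav1 (18.7). Array 2 was lowest for 104431_at of Prkcq (20.6), 93661_at and 93663_r_at of Zap70 (9.08 and 3.59) and 96511_s_at and 99799_at of Vav1 (25.5 and 7.89). For 161853_f_at of Prkcq arrays 1 and 2, at 9.16 and 12, lay below arrays 3 and 4, at 35 and 35.8. The number's share was only 23.0% for 93663_r_at and 39.1% for 96511_s_at, and in these no array number kept its rank in every group. The Gapdh ratio and the share of values at 1 also differ by number, as given above, while the Actb ratio overlaps between numbers, and their part in these patterns was not tested.

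**Figure D3:**
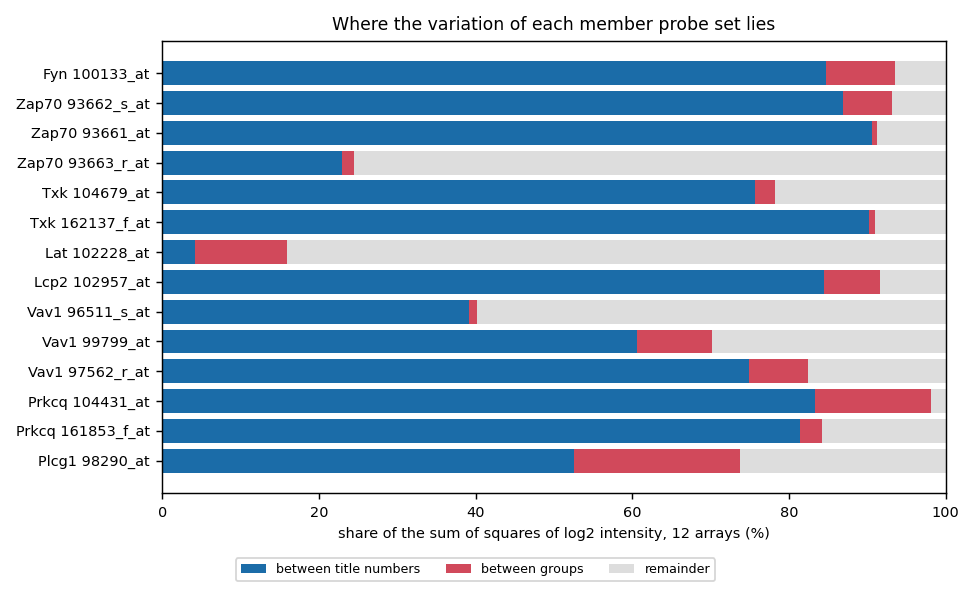
Share of the sum of squares of log2 intensity over the 12 arrays that lies between title numbers, between groups and in the remainder, in percent, for each of the 14 probe sets. The number takes from 4.14% (Lat) to 90.6% (93661_at of Zap70) and the group from 0.60% to 21.2% (Plcg1).

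The probe sets whose pattern over the 12 arrays was nearest to each member were sought by the root mean square difference of log2 values, each centred on its own mean. For Fyn they were Glud1 (0.18) and Tab2 (0.25), where the median over all other single-gene probe sets was 0.97. For 93662_s_at of Zap70 they were Ubtf (0.19) and Romo1 (0.20), for Txk Pdha1 (0.24) and Hcfc1 (0.26), and for Lcp2 Ube2d2a (0.26) and Wdr26 (0.29). For 104431_at of Prkcq they were Higd2a (0.24) and Dgka (0.25), the latter a diacylglycerol kinase. The nearest to Lat were Gss (0.25) and Nt5dc3 (0.28), to Vav1 Ubfd1 (0.26) and Usp15 (0.27), and to Plcg1 Taf15 (0.32) and Fcgrt (0.34). All these likenesses are over the same 12 arrays. The title number was not taken out, and its median share of the members' variation was 78.6%. A likeness can therefore lie mostly in what same-numbered arrays share, and shared regulation was not tested.

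Other genes of the pathway were taken from 3 lists, each gene by its brightest probe set. Of 26 further proximal genes, such as the adaptors and lipid kinases that LAT and SLP-76 recruit, 21 had a probe set and 17 were tested. None of the 17 was called in any comparison, with or without the block. The shares of all tested probe sets called, given above, ran from 0.023% to 1.36%. The median differences of the 17 were 0.01 in HY_high against HY_low, 0.22 in HY_low against OT1 and 0.34 in HY_high against OT1. Grap2, which encodes Gads, the bridge between LAT and SLP-76, lay between 1 and 2.67 on all arrays and was below the filter. The smallest p in HY_high against HY_low belonged to Plcg2 (1.22 ± 0.45), Nck1 (-0.86 ± 0.50) and Sos1 (0.70 ± 0.53), all below 8 in geometric mean except Sos1 in HY_high (9.03). In HY_low against OT1 they belonged to Pik3ca (0.87 ± 0.59), Plcg2 (-0.63 ± 0.45) and Wipf1 (0.70 ± 0.60), and in HY_high against OT1 to Sos1 (1.29 ± 0.53), Wipf1 (0.93 ± 0.60) and Sos2 (1.02 ± 0.69), each with a limma adjusted p of 1.

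Of 35 genes further downstream, in the calcium, Ras, NF-kappaB and Rac branches, 24 had a probe set and 24 were tested. None was called in any comparison, with or without the block, beside the same shares of all tested probe sets. The median differences of the 24 were 0.28, 0.00 and 0.17 in the same order. Nfatc1, a calcium-regulated transcription factor, had a geometric mean of 20.1 in HY_high against 9.78 in HY_low (difference 1.04 ± 0.48, limma adjusted p = 1) and 12.9 in OT1. Ppp3cb, a calcineurin catalytic subunit, was dim, at 1.54, 2.3 and 4.22 in OT1, HY_low and HY_high, and its HY_high minus OT1 difference of 1.45 ± 0.51 did not pass (adjusted p = 0.782). Rac1, a GTPase that Vav1 acts on, was at 250.3 in HY_high against 159 in HY_low (0.66 ± 0.46). Other genes with the smallest p were Mapk8 (0.46 ± 0.47) in HY_low against OT1, and Nfatc2 (-0.86 ± 0.52) and Map2k1 (0.65 ± 0.48) in HY_high against OT1, all with an adjusted p of 1.

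All calls in the 3 lists fell among the regulators of the receptor-proximal kinases. That list holds the CD8 chains and was drawn with earlier results known, so this placing depends on how the lists were drawn. Of 18 regulators 15 had a probe set and 13 were tested. In HY_high against HY_low 1 of 13 was called, and 2 with the block, where 0.023% and 0.345% of all tested probe sets were. In HY_high against OT1 it was 1, and 1 higher and 1 lower with the block, beside 0.173% and 1.36%. In HY_low against OT1 it was 0. Cd8b1, the CD8 beta chain of the coreceptor that carries Lck, was lower in HY_high than in both other groups, at 8.18, 1, 6.18 and 8.26 on its 4 arrays against 172 to 1374 in HY_low and 219 to 1219 in OT1 (limma adjusted p = 0.000252 and 6.8e-05). Its HY_high values lay near the bottom of the scale, so the fitted log2 differences of -7.15 and -7.26 have no exact size, and with all values raised to a floor of 8 they were -6.31 and -6.42 (limma adjusted p = 0.00291 and 0.00194). Cd8a, the alpha chain, which contacts Lck, was at 85.4 to 216 in HY_high, 109 to 1084 in HY_low and 257 to 625 in OT1 and did not pass (-1.11 ± 0.58 in each, adjusted p = 1). Cd4, the other Lck-binding coreceptor, was dim in every group, from 2.16 to 9.19. With the block, 2 further regulators were called. Sit1, an inhibitory transmembrane adaptor, fell in HY_high against HY_low by 1.53 on the log2 scale (block adjusted p = 0.0383, or 1 without the block). Ptpn22, a phosphatase of Lck and ZAP-70, rose in HY_high against OT1, by 0.89 (block adjusted p = 0.0351, or 1 without the block), with 96.4 to 194 in HY_high and 63.2 to 105 in OT1.

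By their brightest probe sets, the direct switches of the Src kinases had their extremes on the arrays numbered 1. Csk, which phosphorylates the inhibitory tyrosine of Lck and Fyn, was at 107, 140 and 110 on the arrays numbered 1 in OT1, HY_low and HY_high and between 18.0 and 42.7 on all others. Ptprc, which encodes CD45, the phosphatase that removes that phosphate, was at 17.5, 5.55 and 7.47 on the arrays numbered 1 and between 109 and 293 on all others. Differences between groups were -0.35 to 0.11 for Csk and -0.48 to 0.51 for Ptprc, with standard errors of 0.65 and 1.21. The remaining regulators named by the rule were Ptpn6 (-0.55 ± 0.54), Cbl (-0.56 ± 0.57) and Unc119 (-0.42 ± 0.51) in HY_low against OT1, none of which passed.

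**Figure D4:**
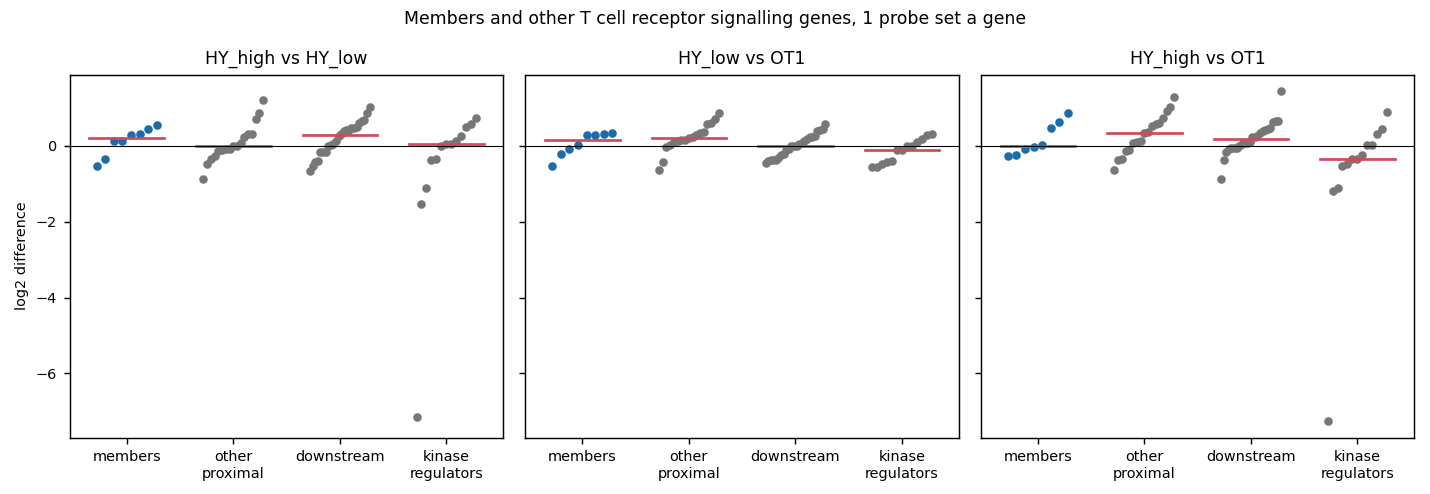
Log2 difference of each tested gene (1 probe set a gene, the brightest) for the 8 measured members and the 3 other pathway lists in the 3 comparisons, with the list median as a red line, hidden where it lies at 0. All points but 1 in HY_high against HY_low and 1 in HY_high against OT1 lie between -1.53 and 1.45; that point is Cd8b1, at fitted values of -7.15 and -7.26 that depend on values near the lowest intensity.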

How the data were processed

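Thymocyte RNA was measured on 12 Affymetrix mouse arrays in 3 groups of 4. The authors deposited 1 table of linear intensities for 12488 probe sets. The steps that gave these intensities are not stated in the labels or the table. Precision depends on the few arrays in each group and on whether the title number is fitted. For Lcp2 in HY_high against OT1 the standard error was 0.64 without the number and 0.26 with it as a block. Control probe sets (66) were left out. Groups and numbers came from the labels' titles. Symbols came from the platform annotation (10833 probe sets with 1 gene, 396 with several, 1193 with none), updated by gene ID.

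Intensities were put on the log2 scale without further scaling. Probe sets whose mean lay above the 30th percentile of all means (an intensity of 1.76) were tested with limma 3.58.1 in R 4.3.3: one mean per group, 9 residual degrees of freedom, empirical Bayes with an intensity trend, two-sided, Benjamini-Hochberg threshold 0.05. The script was tested on simulated data. Same-numbered arrays of different groups had deviations from their group means that correlated at 0.341 to 0.593 (12 pairs), and other pairs at -0.401 to 0.163 (36 pairs). The data, not the labels, show this pairing, so the blocked fit, with title number as a factor and 6 residual degrees of freedom, is given as an alternative. Equal values above 8 made up at most 0.139% between any pair of arrays. Alternatives were the block, other filters, quantile and median scaling, a floor of 8, array weights, no trend, only the groups compared, and leaving out arrays.

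The members, lists and tests were chosen with earlier results of these data known. All member probe sets are named. Other pathway genes are named where they passed with or without the block, had one of the 3 smallest p of their list in a comparison, or directly bind or regulate a member. The nearest patterns are the 2 smallest root mean square differences to each member's brightest probe set.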

Additional observations from a re-analysis of the deposited data

Results flagged for a closer look

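Of 42 sets of 4 arrays (14 member probe sets in 3 groups), 2 held an array whose gap to its nearest neighbour on the log2 scale took a share of the set's range above Dixon's 95% critical value, and chance flags about 1 set in 20. For Lat, HY_low array 2 was at 3.29, while the other arrays of that group were at 11.2 to 13.8. For 162137_f_at of Txk, HY_high array 1 was at 1.98, while the others were at 7.83 to 8.43. In OT1 and HY_low the same probe set was also lowest on array 1, at 2.11 and 2.29.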

How the results depend on the processing

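No member probe set was called in any comparison under any of the 23 alternatives, the replicate block and the fits without the arrays numbered 1 or 2 (chosen after seeing the data) included. The lowest adjusted p was 0.370 in HY_high against HY_low (Prkcq), 0.697 in HY_low against OT1 (Zap70) and 0.329 in HY_high against OT1 (Lcp2), each with the replicate block. Of 322 member values per comparison, 32, 32 and 37 changed sign, and 7, 3 and 4 of the 14 probe sets kept their sign throughout. Several alternatives could not change a sign, because they leave the difference itself as it was. These were the block, the other filters, no trend, only the groups compared, and leaving out an array of the group not compared. The share of changed signs therefore understates how much the signs depend on the other alternatives.

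The number of all tested probe sets called in HY_high against HY_low was 2. It was 30 with the replicate block, 1 with no filter, with the filter at the 50th percentile, with arrays scaled to one median or without the arrays numbered 2, 4 with the floor at 8, 7 with array weights, and 1 to 4 when single arrays were left out (4 without HY_low array 1, and 1 without OT1 array 3 or 4 or any other array of HY_low or HY_high). In HY_low against OT1 it was 2, with 8 under the block, 4 with array weights and 2 to 3 without single arrays. In HY_high against OT1 it was 15, with 118 under the block, 6 with no filter, 8 with the floor at 8, 64 with array weights, 8 with only the groups compared, 8 and 9 without the arrays numbered 2 and 1, and 6 to 17 without single arrays (6 without OT1 array 2 or HY_high array 3, 7 without OT1 array 4 or HY_high array 2, 9 without OT1 array 3 or HY_high array 4). With no filter, probe sets with 1 value on all arrays were dropped. The block changed no call of a member, and Sit1 and Ptpn22 passed under no other alternative. Dim members (Plcg1, 93663_r_at of Zap70, 162137_f_at of Txk) were measured nearest to the lowest value of 1.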
